A study of Mus musculus with 20 samples.

Results

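The genes described here carry glycolysis from the splitting of fructose 1,6-bisphosphate to pyruvate and lactate. They are aldolase A (Aldoa), triosephosphate isomerase (Tpi1), glyceraldehyde-3-phosphate dehydrogenase (Gapdh), phosphoglycerate kinase (Pgk1), phosphoglycerate mutase (Pgam1), enolase 1 and enolase 2 (Eno1 and Eno2), pyruvate kinase (Pkm) and the lactate dehydrogenase subunits Ldha and Ldhb. They were taken by name, not by their values, though with earlier results of these data known. All 10 were present in each of the 4 deposited tables, 9 under their symbol and Aldoa under its Ensembl gene ID. They are 10 of 14700 genes listed over the tables. Expression was measured by RNA sequencing in primary cortical neurons of mouse embryos at day 15, cultured for 7 days. The cultures were wild type (WT) or knocked out (KO) for ciRS-7, a circular RNA made from the Cdr1as locus. Each then spent 12 h in normoxic medium or without oxygen and glucose (oxygen-glucose deprivation, OGD, used in culture to model ischemia).

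The groups were N_WT, OGD_WT, N_KO and OGD_KO, with 5 libraries in each. The strain field read C57BL/6N-Cdr1asem1Nikr for WT and KO libraries alike, so the genotype is taken from the genotype label. Normoxic medium was a Neurobasal supplemented with D-glucose at 25 mM and sodium pyruvate at 0.2 mM, and these cells went back to the incubator at 37 °C and 5% CO2. OGD medium was the same Neurobasal without that supplement, and these cells stood in a chamber at 1% O2 (37 °C, 5% CO2), so oxygen, glucose and pyruvate were changed together. The allele name in the strain field marks an endonuclease-mediated mutation, which is carried by every cell of the animal and not by neurons alone. The labels number the cultures 1 to 5 within a genotype, and the N and OGD libraries of a number share the genotype label and a batch label (1, 2, 3.1, 3.2 or 3.3).

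Between 7071506 and 16658617 reads were recovered per library from the deposited values. They are the whole numbers behind those values. Whether these had been adjusted for batch before deposit was not examined, and the fits reported made no allowance for it. Cdr1as had 700 to 1365 reads in N_WT and 545 to 1912 in OGD_WT, against 5 to 16 in N_KO and 2 to 14 in OGD_KO. All 12 neuron markers examined were listed, none of 9 microglia markers was, and 9 of 10 astrocyte markers were, so the cultures held astrocyte transcripts beside neuronal ones. The members were well covered, from 80 reads (Eno2 in an OGD_KO library) to 8455 reads (Gapdh in an OGD_WT library). Levels below are CPM, the reads of a gene relative to its library's size, computed from recovered reads on a scale common to the 20 libraries. Fold changes and tests come from the log2 CPM of each comparison's own table, because the tables were scaled separately.

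Glycolysis turns glucose into pyruvate and yields ATP without oxygen. Aldolase splits the 6-carbon sugar, triosephosphate isomerase interconverts the products, and the steps from glyceraldehyde-3-phosphate dehydrogenase to pyruvate kinase recover ATP and NADH. Lactate dehydrogenase then reduces pyruvate to lactate and returns NAD+, which lets glycolysis run when respiration is limited. Several steps have alternative genes. Eno2, neuron-specific enolase, is the form that mature neurons use, while Eno1 is widespread. Ldha and Ldhb encode the subunits that combine into the lactate dehydrogenase tetramers, Ldha being rich in glycolytic tissue and Ldhb in oxidative tissue. Many of these genes are textbook targets of hypoxia-inducible factors, which bind a short motif, A or G followed by CGTG, near gene starts.

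Promoter sequence is shown for the member with the largest rise, a further member that rose, and the members of the set that did not rise. Each sequence is the 250 bases before an annotated start, 5′ to 3′ on the gene's strand, from RefSeq for GRCm38.p6. Capitals mark ACGTG or GCGTG on either strand (CACGT or CACGC when read from the other strand), with overlapping matches merged. The windows are chr7:46845554-46845803 (plus strand) for Ldha, chrX:106186850-106187099 (plus) for Pgk1, chr6:142507958-142508207 (minus) for Ldhb and chr6:124769674-124769923 (minus) for Eno2.
Ldha: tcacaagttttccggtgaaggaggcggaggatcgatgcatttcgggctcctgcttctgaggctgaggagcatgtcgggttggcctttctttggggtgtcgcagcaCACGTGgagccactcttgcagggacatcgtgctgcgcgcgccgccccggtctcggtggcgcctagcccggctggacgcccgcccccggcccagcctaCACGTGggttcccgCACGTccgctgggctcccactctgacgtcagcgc
Pgk1: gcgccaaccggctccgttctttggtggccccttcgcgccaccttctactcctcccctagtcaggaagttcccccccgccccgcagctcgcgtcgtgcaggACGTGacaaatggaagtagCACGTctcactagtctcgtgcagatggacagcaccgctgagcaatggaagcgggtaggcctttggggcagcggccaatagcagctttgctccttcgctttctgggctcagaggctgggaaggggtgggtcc
Ldhb: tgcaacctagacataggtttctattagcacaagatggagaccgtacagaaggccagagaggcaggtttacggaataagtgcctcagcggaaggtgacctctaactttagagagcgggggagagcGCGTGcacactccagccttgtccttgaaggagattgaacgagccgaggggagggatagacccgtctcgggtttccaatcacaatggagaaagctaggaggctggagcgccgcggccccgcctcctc
Eno2: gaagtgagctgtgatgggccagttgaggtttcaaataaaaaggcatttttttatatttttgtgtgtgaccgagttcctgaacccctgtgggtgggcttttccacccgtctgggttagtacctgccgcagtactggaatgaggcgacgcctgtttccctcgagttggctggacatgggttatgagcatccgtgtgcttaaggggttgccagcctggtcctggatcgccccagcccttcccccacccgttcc

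The Ldha window held 3 such sites, 145, 48 and 34 bases before the start, and in the first pair the match is the palindrome CACGTG. The Pgk1 window held 2 sites, 150 and 131 bases before the start. Ldhb had 1 site, 126 bases before the start, and the Eno2 window held none. RefSeq gives 16 such windows for the 10 members, and the window counted for each is the one whose start lies nearest to an annotated principal start. In these, 7 of 10 members had at least 1 site: Ldha and Pgam1 had 3, Gapdh and Pgk1 had 2, Aldoa, Eno1 and Ldhb had 1, and Tpi1, Eno2 and Pkm had none. The counts depend on the start taken: other windows held 2 sites for Eno1, 1 for Pkm and 1 for Ldha, and for Aldoa another window held none. Of 32851 promoter windows of the same length, 38.6% held at least 1 site, 13.5% held 2 or more and 4.65% held 3 or more. Of the members with a match in the window counted, Ldhb did not pass the test below and the others rose. Of those without a match, Tpi1 and Pkm rose and Eno2 fell. Whether such sites bear on the changes was not tested. A match is a run of letters and not a measured binding site.

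The genes lie on several chromosomes of the mouse (GRCm38, the build mm10, GENCODE annotation). Ldha is at chromosome 7, 46841475 to 46855627, and Aldoa is farther along the same chromosome at 126795234 to 126800751. Chromosome 6 holds Eno2 (124760053 to 124769673) near Tpi1 (124810586 to 124814296), and also Gapdh (125161715 to 125166467) and Ldhb (142490249 to 142507957). Pgk1 is on the X chromosome (106187100 to 106203699), Pgam1 on 19 (41911923 to 41918660), Eno1 on 4 (150236721 to 150248879) and Pkm on 9 (59656368 to 59679375). The close pair Eno2 and Tpi1 moved in opposite directions under OGD.

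In normoxic WT cultures the order of the transcripts was taken from levels divided by exon length. That length is the union of all annotated exons of a gene, and the order depends on it. Which transcripts were in use is not known. Pgam1 was highest at 97.3 ± 26.5 CPM per kilobase (SD, n = 5), followed by Gapdh at 53.9 ± 10.8, Aldoa at 49.3 ± 10.5 and Ldhb at 46.7 ± 2.93. Pkm (39.1 ± 7.50), Pgk1 (34.9 ± 8.21), Eno1 (27.6 ± 8.03) and Ldha (24.0 ± 8.39) formed the middle of the order. Tpi1 (11.7 ± 8.19) and Eno2 (8.55 ± 1.90) were lowest. By this measure Pgam1, at 77.7 to 143, lay above every library of Gapdh, at 45.1 to 72.2. All other neighbours in this order overlapped. The lengths used were 1.982 kb for Pgam1 and 4.133 kb for Gapdh. In CPM not divided by length, Gapdh averaged 222.9 and Pgam1 192.9. Ldhb was above Ldha per length in normoxia, at 44.0 to 51.3 against 18.1 to 38.5, with lengths of 1.57 and 3.31 kb. In CPM not divided by length they were close, with Ldha at 79.4 and Ldhb at 73.34 on average. Under OGD in WT Ldha was above Ldhb on average by either measure, at 88.8 against 52.6 CPM per kilobase and 294 against 82.57 CPM.

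OGD raised 8 of the 10 transcripts in WT cultures and lowered 1. Ldha rose most, followed by Aldoa, Eno1 and Pgk1, each about 3-fold, and then Pgam1, Tpi1, Gapdh and Pkm at slightly over 2-fold. Eno2 fell about 2-fold, the reverse of Eno1, and Ldhb did not pass the test. Among all 14235 genes of that table, 21.6% were called higher and 22.8% lower at an adjusted p under 0.05. The median log2 fold change over the members was 1.21, against -0.03 over all genes. In 6 of 10 members (Aldoa, Gapdh, Pgk1, Eno1, Eno2 and Pkm) every OGD library lay on one side of every normoxic library, and 26.9% of all genes did so.

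**Figure D1:**
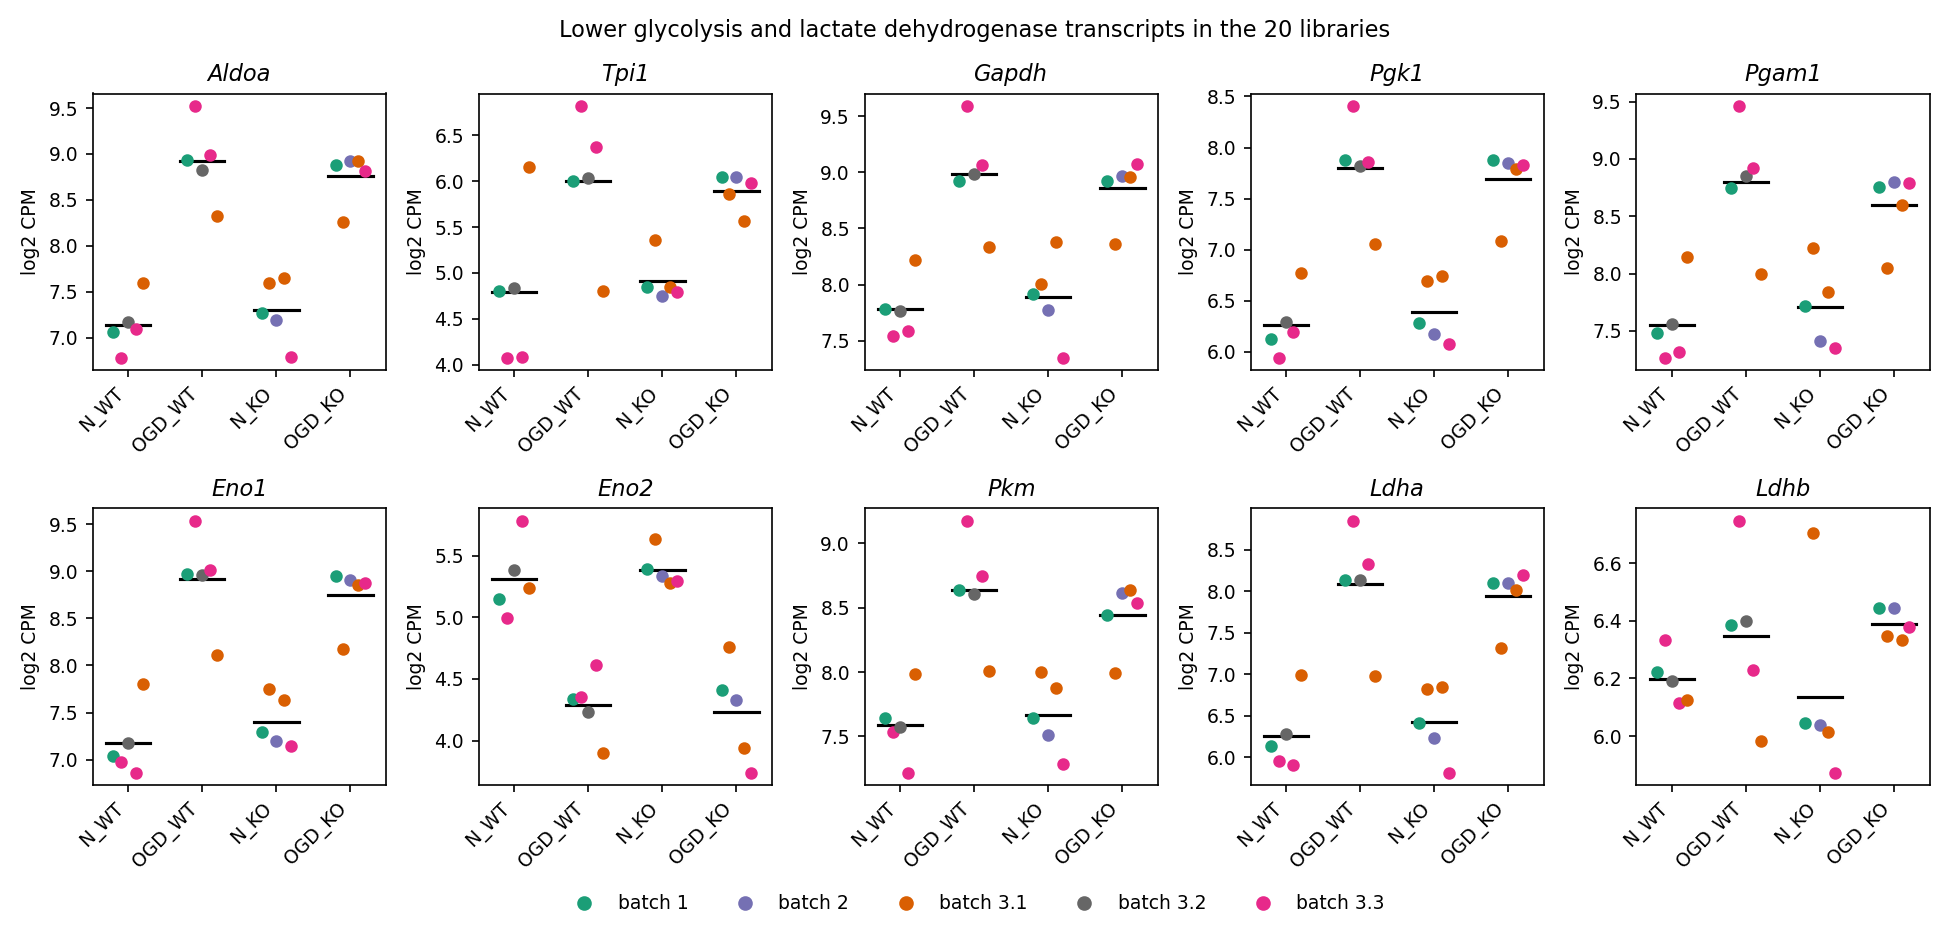
Level of each gene of the set in every library (y axis, log2 CPM; x axis, the groups N_WT, OGD_WT, N_KO and OGD_KO; points are libraries coloured by batch label and bars are means of the log2 values). Ldha moves from 60.02 to 127.4 CPM in N_WT to 126.3 to 459.6 CPM in OGD_WT, Eno2 moves the other way, and Ldhb stays between 58.43 and 107.2 CPM throughout.

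Aldoa, which splits fructose 1,6-bisphosphate, stood at 133.4, 110.1, 144.2, 137 and 193.2 CPM in N_WT cultures 1 to 5 and at 490, 734.7, 453.7, 509.9 and 321.4 CPM in OGD_WT. The lowest OGD library was above the highest normoxic library. The log2 fold change was 1.76 ± 0.19 (SE), or 3.39-fold (adjusted p = 3.18e-07, limma with Benjamini-Hochberg adjustment).

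Tpi1, which interconverts the aldolase products, was far less uniform, at 27.77, 16.73, 28.33, 16.79 and 71.21 CPM in N_WT and 64.01, 112.4, 65.4, 82.28 and 27.79 CPM in OGD_WT. In cultures 1 to 4 the OGD library was higher, and in culture 5 the order was reversed, so the groups overlap. The log2 fold change was 1.19 ± 0.33 (limma adjusted p = 0.00526). It rose to 1.82 when culture 5 was left out. The call was lost without culture 2 (0.81, adjusted p = 0.107), without culture 4 (0.92, adjusted p = 0.0955) and with the culture number as a block (1.19, adjusted p = 0.0544).

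Gapdh, the NADH-producing step and a common reference gene in expression assays, ranged from 186.4 to 298.5 CPM in N_WT and from 323.4 to 771 CPM in OGD_WT, without overlap. Its log2 fold change was 1.19 ± 0.19 (limma adjusted p = 4.12e-05), or 2.27-fold. Pgk1, the first ATP-forming step, went from 61.34 to 109.3 CPM to 133.1 to 339.1 CPM, 1.52 ± 0.20 on the log2 scale (limma adjusted p = 3.59e-06). The groups did not overlap for either gene. Pgam1, which moves the phosphate of phosphoglycerate, went from 153.9 to 283.4 CPM to 255.1 to 704.6 CPM, 1.22 ± 0.21 (limma adjusted p = 9.48e-05), with the lowest OGD library inside the normoxic range.

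The enolases, which form phosphoenolpyruvate, parted. Eno1 was at 131.3, 125.9, 144.2, 116.2 and 223.3 CPM in N_WT and at 502.4, 741.9, 496.4, 515.2 and 275.7 CPM in OGD_WT, a log2 fold change of 1.73 ± 0.21 (limma adjusted p = 1.74e-06). Eno2 was at 35.34, 31.64, 41.64, 54.79 and 37.62 CPM in N_WT and at 20.05, 20.24, 18.56, 24.34 and 14.72 CPM in OGD_WT. Every OGD library was lower than every normoxic one for Eno2 and higher for Eno1. The Eno2 log2 fold change was -1.03 ± 0.16 (limma adjusted p = 3.76e-05), or 2.04-fold lower.

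Pkm, which makes pyruvate and the final ATP, rose from 148.7 to 252.8 CPM to 257.8 to 577.3 CPM, 1.03 ± 0.19 on the log2 scale (limma adjusted p = 1.40e-04), with no overlap. Its values sum the alternative M1 and M2 forms, which a gene-level table does not separate.

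Ldha, the subunit rich in glycolytic tissue, was at 70.09, 61.73, 77.76, 60.02 and 127.4 CPM in N_WT and at 281.7, 459.6, 280.5, 322.1 and 126.3 CPM in OGD_WT. Cultures 1 to 4 were all several times higher under OGD, and culture 5 had almost the same level in each condition. The log2 fold change was 1.81 ± 0.25 (limma adjusted p = 7.50e-06), or 3.51-fold. Ldhb was at 74.6, 80.47, 72.92, 69.14 and 69.57 CPM in N_WT and at 83.37, 107.2, 84.22, 74.87 and 63.13 CPM in OGD_WT. The groups overlap, and the log2 difference of 0.14 ± 0.15 (95% interval -0.17 to 0.44) did not pass the test (limma adjusted p = 0.48).

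In KO cultures OGD called the same 8 members higher and the same 1 lower. Ldha was again first, at 85.38, 113.5, 74.97, 114.6 and 56.26 CPM in N_KO and 273.6, 159.5, 273.6, 257.4 and 292 CPM in OGD_KO. All OGD libraries were above all normoxic ones, with culture 2 the lowest of them. The Ldha log2 fold change was 1.52 ± 0.20 (limma adjusted p = 1.35e-05), or 2.87-fold. Of all 14375 genes in that table, 21.0% were called higher and 19.9% lower. The members' median log2 fold change was 0.98, against 0.003 over all genes. On the scale of that table the groups did not overlap for 8 of 10 members, all but Pgam1 and Ldhb, against 25.8% of all genes. On the CPM scale common to the 20 libraries, Gapdh (up to 333.5 in N_KO and down to 328.9 in OGD_KO) and Pkm (up to 256 and down to 254) overlapped as well.

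The other members that rose in KO cultures were, on the log2 scale, Aldoa at 1.47 ± 0.18, Eno1 at 1.36 ± 0.18, Pgk1 at 1.30 ± 0.18, Gapdh at 0.98 ± 0.19, Tpi1 at 0.98 ± 0.15, Pgam1 at 0.90 ± 0.19 and Pkm at 0.79 ± 0.17. Their limma adjusted p ran from 7.02e-06 for Aldoa to 0.00135 for Pkm. Tpi1 was tighter here than in WT, at 26.67 to 40.73 CPM in N_KO and 47.02 to 65.66 CPM in OGD_KO. Eno2 was at 41.8, 49.39, 40.07, 38.71 and 38.97 CPM in N_KO and at 21.05, 26.84, 19.87, 15.21 and 13.19 CPM in OGD_KO. It fell in all 5 cultures, with a log2 fold change of -1.13 ± 0.17 (limma adjusted p = 5.73e-05).

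Ldhb in KO cultures was at 65.96, 104.2, 65.57, 64.48 and 58.43 CPM in normoxia and at 87, 81.23, 86.94, 80.46 and 83.09 CPM under OGD. In 4 of 5 cultures it was higher under OGD, and in culture 2, whose normoxic library stood apart, it was lower. The log2 difference of 0.26 ± 0.16 (95% interval -0.06 to 0.59) did not pass the test (limma adjusted p = 0.187). Without culture 2 it was 0.41 and passed (limma adjusted p = 0.0150), still well under the other members' rise. With libraries scaled to their totals, the Ldhb difference turned to -0.14 in WT and -0.03 in KO, uncalled in each. Pkm in KO then stood at 0.50 (limma adjusted p = 0.0326). Scaling to totals moved the median over all genes to -0.30 in WT and -0.28 in KO, and the directions called for the other 9 members did not change with it.

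**Figure D2:**
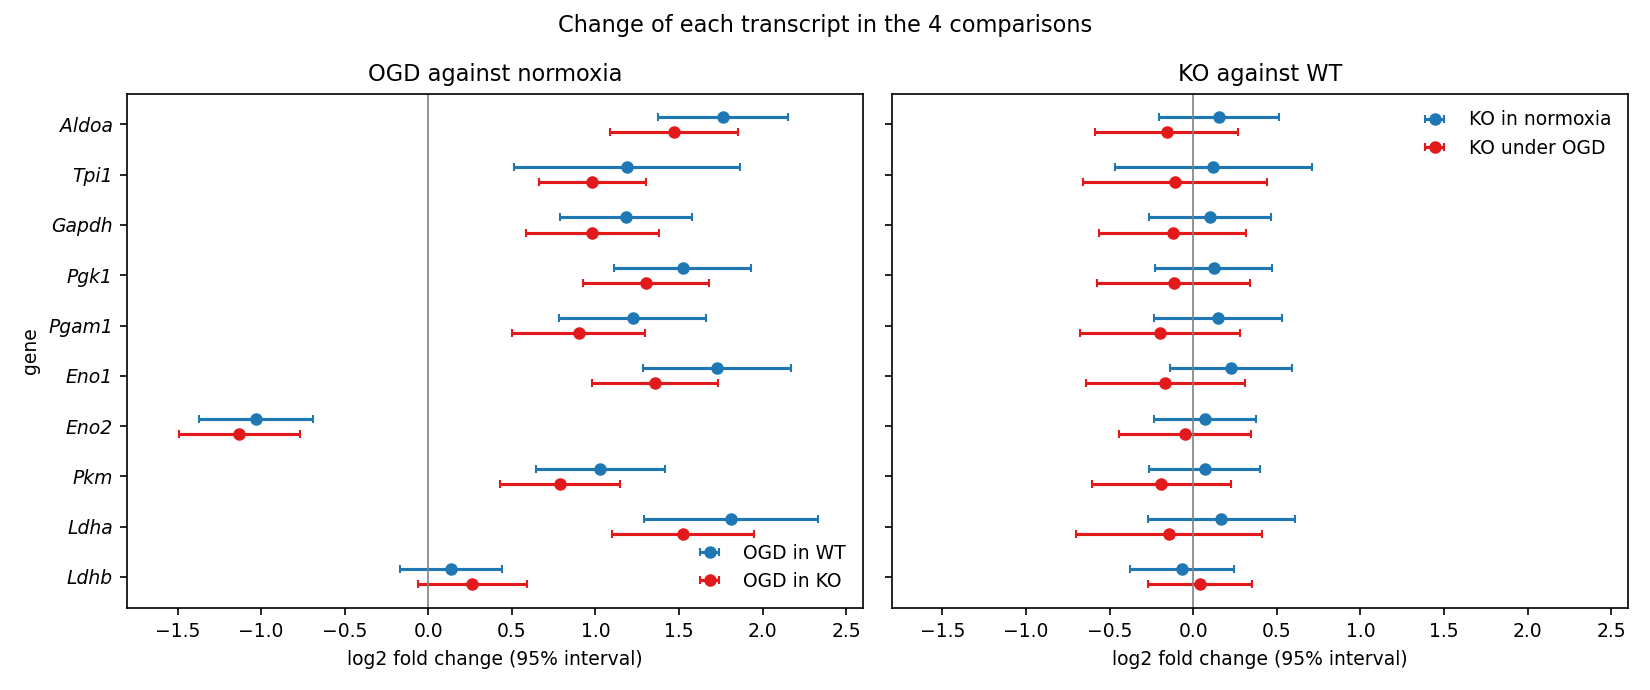
Log2 fold change of each gene of the set (x axis; points are limma estimates and bars are 95% intervals), OGD against normoxia on the left and KO against WT on the right, 5 against 5 libraries each. On the left Ldha is farthest out at 1.81 in WT and 1.52 in KO, Ldhb lies at 0.14 and 0.26 with intervals across 0, and Eno2 is at -1.03 and -1.13, while on the right every interval crosses 0.

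The balance between isozymes was examined as a ratio inside each library, which library scaling cannot alter. In WT normoxia the CPM ratio of Ldha to Ldhb was 0.939, 0.767, 1.07, 0.868 and 1.83 in cultures 1 to 5, and under OGD it was 3.38, 4.29, 3.33, 4.30 and 2.00. Every OGD library was above every normoxic library, though culture 5 came close. The shift was 1.68 on the log2 scale, or 3.20-fold (exact permutation test, two-sided, 5 against 5, p = 0.00794, the smallest this design allows; adjusted over 12 ratio tests, 0.0190).

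In KO cultures that ratio was 1.29, 1.09, 1.14, 1.78 and 0.963 in normoxia and 3.15, 1.96, 3.15, 3.20 and 3.51 under OGD. Again the groups did not overlap, with a shift of 1.26 on the log2 scale, or 2.39-fold (exact permutation p = 0.00794, adjusted 0.0190).

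The enolase ratio shifted more. Eno1 to Eno2 in CPM was 3.72, 3.98, 3.46, 2.12 and 5.94 in N_WT and 25.05, 36.65, 26.75, 21.17 and 18.73 in OGD_WT. It was 3.75, 4.35, 3.65, 5.13 and 3.63 in N_KO and 23.45, 10.75, 24.14, 30.37 and 35.53 in OGD_KO. The groups were far apart in each genotype, by 2.76 on the log2 scale in WT (6.77-fold) and 2.49 in KO (5.60-fold), each with an exact permutation p of 0.00794 (adjusted 0.0190).

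The aldolase ratio moved least. Aldoc, the brain form of aldolase and abundant in astrocytes, itself rose under OGD, by 0.73 ± 0.15 in WT and 0.68 ± 0.16 in KO on the log2 scale (limma adjusted p = 5.99e-04 and 0.00211). Aldoa to Aldoc shifted by 1.03 on the log2 scale in WT (2.04-fold, exact permutation p = 0.00794, adjusted 0.0190). In KO it shifted by 0.79 (1.73-fold, exact permutation p = 0.0238, adjusted 0.0476), with overlapping groups. With libraries paired by culture, the smallest p that 5 pairs allow is 0.0625 (exact sign-flip permutation, adjusted 0.125), and all 6 OGD shifts of the ratios reached it. None of the 3 ratios differed between genotypes past the threshold in normoxia or under OGD (exact permutation, adjusted p from 0.582 to 0.889).

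**Figure D3:**
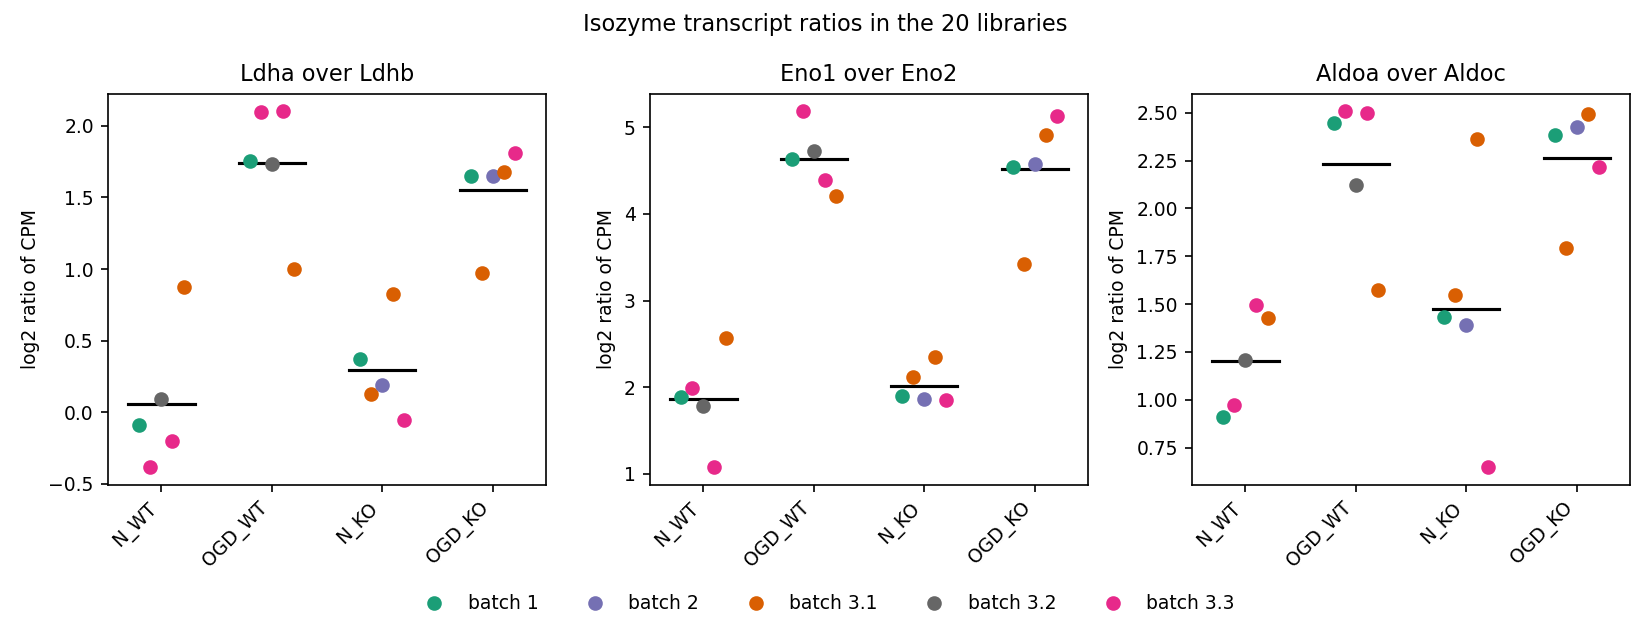
Isozyme ratio in each library (y axis, log2 ratio of CPM; x axis, the 4 groups; points are libraries coloured by batch label and bars are means of the log2 values) for Ldha to Ldhb, Eno1 to Eno2 and Aldoa to Aldoc. Mean log2 ratios of Ldha to Ldhb are 0.06 in N_WT and 1.73 in OGD_WT, those of Eno1 to Eno2 are 1.86 and 4.61, and the highest N_WT and lowest OGD_WT points of Ldha to Ldhb are the culture of batch 3.1.

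Single cultures differed widely in the size of the response. Each change is between the N and OGD libraries of a number, paired by their labels, and carries the variation of each library. Over all genes, the deviations of such libraries from their group means correlated at -0.79 to 0.057, mostly below 0. The lowest were those of culture 3, at -0.64 in WT and -0.79 in KO, each the only culture of its batch. The median OGD-minus-normoxia log2 change over the 10 members was 1.23, 2.33, 1.26, 1.64 and 0.008 in WT cultures 1 to 5. It was 1.11, 0.37, 1.34, 0.76 and 1.58 in KO cultures 1 to 5. The lowest 3 of these 10 values (WT culture 5 and KO cultures 2 and 4) are the 3 cultures with batch label 3.1. The highest 3 (WT cultures 2 and 4 and KO culture 5) are those with batch label 3.3, and the cultures of batches 1, 2 and 3.2 lie between, at 1.11 to 1.34.

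Each of the 8 members that rose had lower signed log2 changes in the batch 3.1 cultures than in any other culture. Some of these were falls, the largest for Tpi1 at -1.35 in WT culture 5. Batch 3.3 was above all other batches for Aldoa, Gapdh, Pgam1, Pkm and Ldha, but its lowest culture lay within or below the others for Tpi1 (1.19), Pgk1 (1.67) and Eno1 (1.73). Ldha showed the order of batches in full. Its log2 change was -0.01, 0.49 and 1.17 in the 3 cultures of batch 3.1, and 2.42, 2.89 and 2.37 in those of batch 3.3. Normoxic Ldha was 113.5 to 127.4 CPM in batch 3.1 and 56.26 to 61.73 CPM in batch 3.3. OGD Ldha was 126.3 to 257.4 CPM and 292 to 459.6 CPM. These offset each other, and log2 Ldha averaged over N and OGD libraries was nearly equal in all batches, as was that of Eno2. Whether batch had been adjusted for before deposit was not examined. The levels of 1 condition therefore cannot be compared between batches on their own. Eno2 did not follow the order of batches seen for the changes of Ldha, falling by between 0.64 and 1.55 on the log2 scale over the 10 cultures. Its change was -1.34, -0.88 and -1.34 in batch 3.1 and -0.64, -1.17 and -1.55 in batch 3.3.

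Changes over all genes also differed between batches. The median absolute change over 12622 genes was 0.44 to 0.46 in the 3 cultures of batch 3.1, 0.36 to 0.41 in batches 1, 2 and 3.2, and 0.48 to 0.59 in batch 3.3. Slc2a1, the main glucose carrier of the blood-brain barrier and glia, rose by 2.42 to 3.13 in batch 3.1 and by 4.25 to 5.08 in batch 3.3 on the log2 scale. Hk2, the hexokinase that hypoxia induces, rose by 2.59 to 3.07 and by 3.78 to 4.21. Pdk1, the kinase that shuts pyruvate dehydrogenase, changed by -0.99, 0.40 and 1.01 in batch 3.1 and by 1.63 to 2.56 in batch 3.3. What the batch labels stand for is not given, and their part in these differences was not tested.

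**Figure D4:**
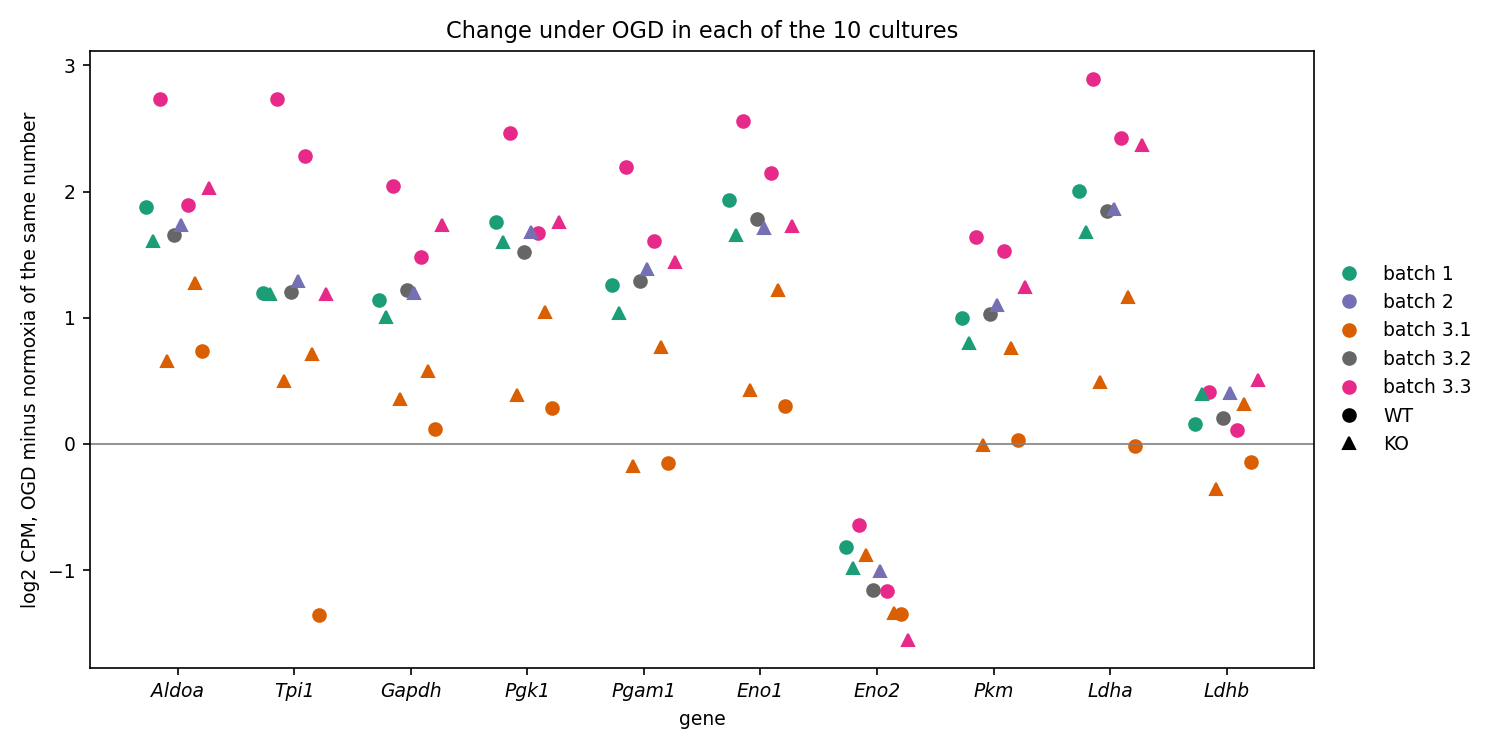
Log2 change from normoxia to OGD within each culture (y axis) for each gene of the set (x axis), coloured by batch label, with circles for WT and triangles for KO. The cultures of batch 3.1 lie lowest for the 8 genes that rose. Medians over the 10 genes are 0.008 to 0.76 in batch 3.1 and 1.58 to 2.33 in batch 3.3, whereas Eno2 is below 0 in all 10 cultures.

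With the batch 3.1 cultures left out, a choice made after seeing the data, 9 members were called in WT and 10 in KO. Over all genes, 6993 of 14235 were then called in WT and 5857 of 14375 in KO. Ldha then stood at 2.27 and Tpi1 at 1.82 in WT on the log2 scale. Ldhb in KO, 0.44, passed the test (limma adjusted p = 0.0133). With batch 3 cultures alone, 9 members were called in WT and 5 in KO, beside 4916 and 2341 of all genes. In KO, Tpi1 (0.81, limma adjusted p = 0.0545), Gapdh (0.90, 0.0617), Pgam1 (0.69, 0.170) and Pkm (0.68, 0.177) no longer passed, with 3 cultures left.

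Between genotypes no difference in these genes passed the test. In normoxia none of the 10 members was called, against 0.0353% of the 14152 genes tested (5 genes, limma). At an unadjusted p under 0.05 there were 256 genes, or 1.81%, fewer than that cut-off gives when no gene differs. A lack of calls in this comparison therefore does not show equal levels. The log2 differences, KO minus WT, ran from -0.07 for Ldhb to 0.23 for Eno1, with a median of 0.12. The 95% intervals of the members reached from -0.47 to 0.71 at their widest.

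Under OGD none was called either, against 0.0282% of 14185 genes (4 genes, limma). At an unadjusted p under 0.05 there were 253 genes, or 1.78%, again fewer than that cut-off gives when no gene differs. The differences, KO minus WT, ran from -0.20 for Pgam1 to 0.04 for Ldhb, median -0.13, with intervals between -0.70 and 0.44. Ldha, for example, averaged 294 ± 119 CPM in OGD_WT and 251.2 ± 52.7 CPM in OGD_KO (SD, n = 5), ranges that overlap. That range gives the lowest and highest bound over the members. A difference inside a member's own interval remains possible with these libraries.

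Whether OGD acted differently in the genotypes was asked with the interaction over all 20 libraries. Of 13688 genes, 0 (0.0%) were called by limma, with 99 (0.72%) at an unadjusted p under 0.05. That is fewer than the cut-off gives when no gene differs, so a lack of calls does not show equal responses. Member interactions ran from -0.40 for Eno1 to 0.10 for Ldhb, with 9 of 10 negative and intervals from -1.13 to 0.65 in all. The size of that lean changed with single cultures. Without WT culture 5 it was more negative, with the members between -0.88 and 0.03. Without KO culture 2 the members lay between -0.20 and 0.26. With the culture as a block and a batch-by-treatment term in the 8 cultures of batches that hold each genotype, added after seeing the data, the members lay between -0.20 and 0.23 and none was called. Within batches, the member medians were 1.23 in WT and 1.11 in KO for batch 1, 0.008 in WT against 0.37 and 0.76 in KO for batch 3.1, and 2.33 and 1.64 in WT against 1.58 in KO for batch 3.3.

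The steps around the set were counted in the same way, and their counts stand against 21.6% of all genes called higher and 22.8% lower in WT, and 21.0% and 19.9% in KO. Besides Aldoc, the other isozymes of the same steps were mostly unlisted, with 5 of 12 tested in each OGD comparison. In WT, 1 rose (Aldoc) and 1 fell (Ldhd, a D-lactate dehydrogenase, at -0.53 ± 0.18, limma adjusted p = 0.0218). In KO, 2 rose, Aldoc and Eno3, the muscle enolase (0.63 ± 0.20, limma adjusted p = 0.0194), a gene named after its value was seen.

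Upstream, Slc2a1 and Hk2 had larger fold changes than any member. Among 8 transporters of glucose and lactate, 4 rose and 1 fell in each genotype. Slc2a1 was highest at 3.96 ± 0.21 in WT and 3.50 ± 0.22 in KO on the log2 scale (limma adjusted p = 1.54e-11 and 7.60e-09). Slc16a7, the high-affinity lactate and pyruvate carrier of neurons, fell, by 1.56 in WT and 1.49 in KO (limma adjusted p = 2.44e-07 and 1.08e-06). Slc16a3, the lactate exporter of glycolytic cells, was named after its values were seen and rose by 2.73 and 2.14. Of 10 upper glycolysis genes tested, 4 rose and 1 fell in each genotype, led by Hk2 at 3.72 ± 0.19 and 3.34 ± 0.16 (limma adjusted p = 1.15e-11 and 2.59e-10). The other risers, named after their values were seen, were Gpi1 (2.31 and 1.85), Pfkl (2.07 and 1.93) and Pfkfb3 (1.54 and 1.32). Pfkfb1 fell, by 0.74 and 0.83.

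Downstream of pyruvate, the counts lay near or below these shares. Of 13 genes of pyruvate entry into mitochondria, 3 rose in each genotype, 2 fell in WT and 3 fell in KO. Pdk1 was the largest rise (1.42 ± 0.32 in WT and 1.24 ± 0.23 in KO, limma adjusted p = 0.00102 and 2.88e-04), and Dlat, a subunit of pyruvate dehydrogenase itself, the largest fall (-0.70 ± 0.18 and -0.54 ± 0.13). Of 15 citric acid cycle genes, 1 rose and 4 fell in each genotype. Suclg2, a succinyl-CoA ligase subunit, rose by 0.85 and 1.04, and Fh1, fumarase, fell by 0.70 and 0.75. Of 10 genes of the shuttles that carry NADH electrons into mitochondria, 1 rose in each genotype, 1 fell in WT and 2 in KO, with Gpd1 at 0.80 and 0.93 and Gpd1l at -0.51 and -0.43. The median log2 fold changes in WT were 0.45 for transport, 0.12 for upper glycolysis, -0.21 for pyruvate entry, -0.26 for the shuttles and -0.10 for the cycle, beside 1.21 for the members. No gene of these lists was called between genotypes.

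**Figure D5:**
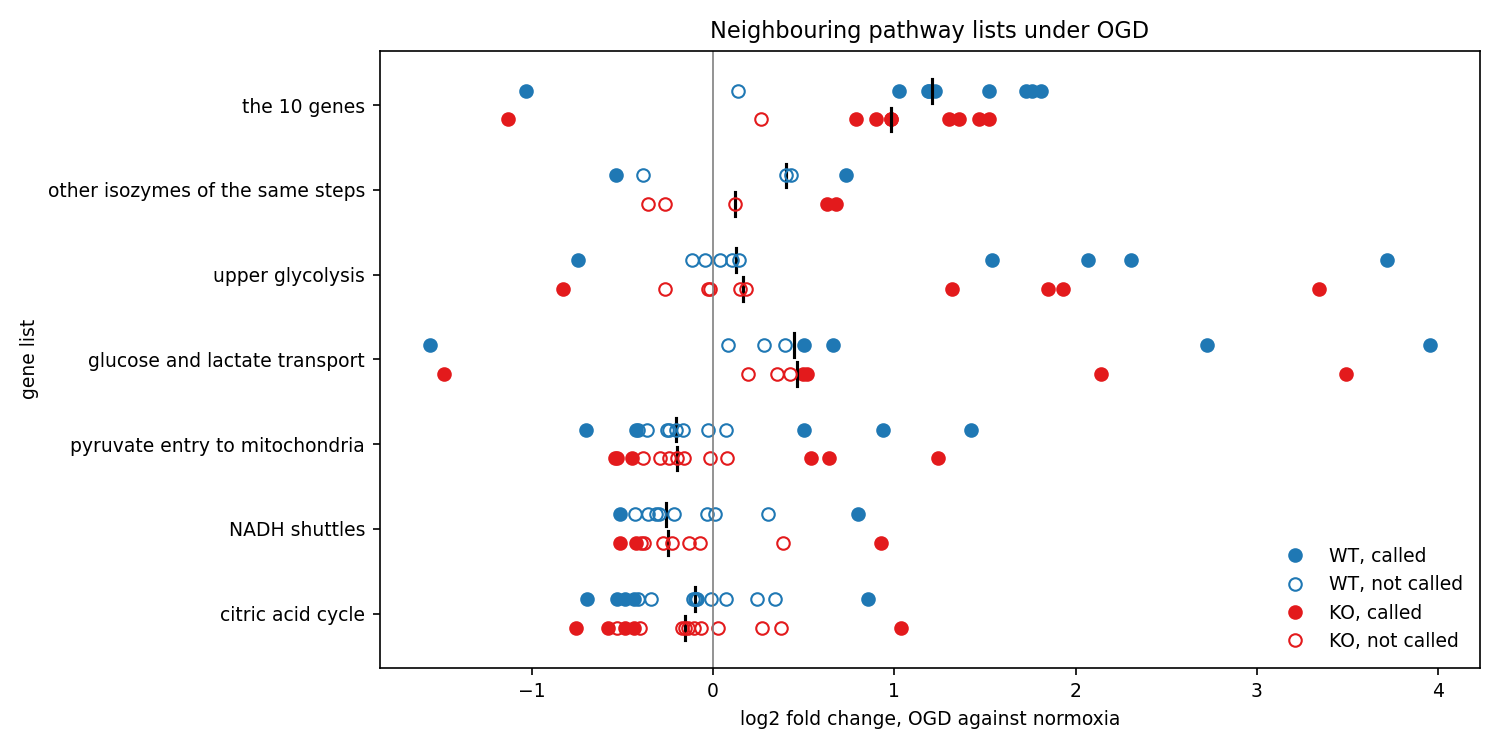
Log2 fold change under OGD (x axis) of every tested gene in each list (y axis), in WT (blue) and KO (red) cultures. Filled points are called genes, open points are not, and bars are list medians, at 1.21 (WT) and 0.98 (KO) for the set described here, whereas the medians of pyruvate entry, the shuttles and the citric acid cycle lie between -0.26 and -0.10.

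Markers of cell types were counted beside the same shares of all genes (21.6% higher and 22.8% lower in WT, 21.0% and 19.9% in KO), and in bulk RNA fewer cells of a type and less RNA per cell cannot be told apart. Of 12 neuron markers, 5 fell in WT and 6 in KO, and their summed level was 4408 to 5716 CPM in N_WT against 3035 to 5590 in OGD_WT, and 4945 to 5167 in N_KO against 3279 to 4638 in OGD_KO. The other 7 in WT and 6 in KO were not called, and the median log2 fold change of the list was -0.33 in WT and -0.55 in KO. Eno2, itself used as a neuron marker, fell by more than these medians, at -1.03 and -1.13. Of 9 astrocyte markers, 6 rose and 1 fell (Gfap) in WT, and 4 rose in KO. Their sum was 1139 to 1441 CPM in N_WT against 1884 to 2345 in OGD_WT, and 938 to 1604 in N_KO against 1554 to 2391 in OGD_KO. All 6 proliferation markers rose in each genotype, with sums of 384 to 493 CPM in N_WT against 709 to 1305 in OGD_WT and 356 to 601 in N_KO against 874 to 1201 in OGD_KO. Of 7 oligodendrocyte lineage markers, 1 rose and 2 fell in WT, near the share of all genes, and 3 rose in KO. The part of these markers in the changes of the members was not tested. None of these marker lists had a gene called between genotypes.

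The members that rose followed each other closely across the 20 libraries. The pairwise Pearson r of log2 CPM among Aldoa, Gapdh, Pgk1, Pgam1, Eno1, Pkm and Ldha was 0.961 to 0.995, highest for Pgk1 with Eno1, and for each of them other members fill at least 2 of its 3 closest genes. Tpi1 sat apart, with r of 0.853 to 0.923 to the other 7, and its closest genes were Impdh2 (0.97), Jmjd1c (0.97) and Pfkfb3 (0.96). Eno2 was closest to Gabra5 (0.98), Pgm2l1 (0.98) and Icam5 (0.98), and Ldhb to Bloc1s4 (0.91), Rexo1 (0.90) and Zfp664 (0.90). These values describe 20 libraries that share 4 groups. With each group's mean subtracted, r among the same 7 members was 0.906 (Gapdh with Pgam1) to 0.975 (Eno1 with Ldha), and that of Tpi1 with them was 0.709 to 0.842. Batches within a group were not separated here, and the part of their differing response in these values was not tested.

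Some members share sequence with copies elsewhere in the genome, and how reads were assigned between them is not given in the sources used here. Of the 50-base words of its transcripts, Pgk1 shared 53.9% with other genes, Pgam1 36.2%, Eno1 26.0%, Pkm 25.8%, Gapdh 25.1% and Ldhb 21.0%. The share was 9.26% for Ldha, 6.43% for Aldoa, 4.18% for Tpi1 and 0.136% for Eno2. The values of the first 6 are therefore less certain than those of the rest. Of the copies, Pgam1-ps2 was listed in all tables and rose with Pgam1 under OGD, by 1.53 ± 0.26 in WT and 0.82 ± 0.24 in KO on the log2 scale (limma adjusted p = 7.35e-05 and 0.00909), at 163 to 443 against 73 to 154 reads in WT. Pgk1-rs7 rose in KO, from 0 to 9 reads to 16 to 62 reads (2.36 ± 0.29, limma adjusted p = 4.91e-06). Its KO-minus-WT difference under OGD was 1.03 ± 0.24 (limma adjusted p = 0.551).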

How the data were processed

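Total RNA was extracted with TRIzol, treated with TURBO DNA-free and made into libraries with a stranded SMARTer kit, per the labels' protocols. The authors deposited log2 CPM in 4 tables, 1 per comparison, of 14152 to 14375 genes. The build is mm10, per the submitters' processing notes. Aligner, counting, annotation, filter and scaling are not given in the sources used here.

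In each gene and group of 5 the deposited extremes equalled 0.6 of the extreme plus 0.4 of its neighbour, a clipping inferred from the values. It was undone by inverting that formula. Whole reads (within 0.05 reads, for genes of up to 500 reads) were then found for at least 99.91% of values, against 45.5% to 92.8% as deposited, and were the same in the paired tables for at least 99.98% of genes.

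Each comparison was fitted in its own table with limma 3.58.1 under R 4.3.3 (eBayes with trend after lmFit, no block), adjusted by Benjamini-Hochberg over all genes, threshold 0.05, two-sided. The interaction used recovered reads of 13688 genes on a joint scale (median-of-ratios factors, prior count 2), with the culture as a random block (consensus correlation -0.19). Isozyme ratios were compared by exact permutation over libraries, adjusted over 12 tests. The code was tested on simulated data. The design states 5 biological replicates; libraries of a group correlated at 0.953 to 0.994 and shared read counts in at most 2.08% of genes.

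In OGD comparisons same-numbered libraries share the genotype label and batch, so the labels pair them, although their deviations correlated at -0.79 to 0.057, mostly below 0. The genotypes' numbers share no batch except number 1, with correlations of -0.21 to 0.24.

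The genes named are the members, other isozymes and copies of members, the called gene of each pathway list with the largest rise and fall under OGD in WT, and the 3 genes most correlated with each member; further ones are marked as named after their values were seen. The members and lists were chosen with earlier results of these data known. Alternatives were the deposited values, other scalings, a prior count of 0.5, a filter at a mean log2 CPM of 1, a replicate block, batch subsets or terms, and leaving out each culture or library. Gene positions, exon lengths and 50-base words are from GENCODE M21.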

Additional observations from a re-analysis of the deposited data

Results flagged for a closer look

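A library was marked where its gap to the nearest of the other 4, divided by the group's range, passed 0.71. Of 52 groups of 5 values examined, 9 held such a library, where chance would give about 2.6.

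Of these, 7 concern replicate 2 of OGD_KO (batch 3.1), which was low on the log2 CPM scale. It stood at 8.26 for Aldoa (others 8.82 to 8.93), 8.36 for Gapdh (8.92 to 9.08), 7.09 for Pgk1 (7.79 to 7.88), 8.05 for Pgam1 (8.60 to 8.80), 8.17 for Eno1 (8.85 to 8.95) and 7.32 for Ldha (8.01 to 8.19). Its log2 ratio of Ldha to Ldhb was 0.97, against 1.65 to 1.81. These genes move together across libraries, so the marks are not independent of each other. The remaining 2 concern replicate 2 of N_KO, from the culture of the same number and batch. It was high for Tpi1 at 5.35 (others 4.75 to 4.85) and for Ldhb at 6.71 (5.87 to 6.05).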

How the results depend on the processing

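The 8 rises and the fall of Eno2 kept their direction in every alternative run, in WT and KO alike. Over the members and comparisons, 780 of 790 alternative values stayed on their side of the threshold. The exceptions were Tpi1 in WT (replicate block 1.19, adjusted p 0.0544; without replicate 2 0.81; without replicate 4 0.92), and Tpi1 0.81, Gapdh 0.90, Pgam1 0.69 and Pkm 0.68 in KO with batch 3 cultures only. Ldhb in KO passed with values as deposited (0.31, adjusted p 0.0197), without batch 3.1 cultures (0.44) and without replicate 2 (0.41). The replicate block changed no other member call.

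Genes called under OGD in KO fell from 5884 to 2341 with batch 3 cultures only, and members from 9 to 5, with fewer libraries in the fit. As deposited, 8280 genes were called in WT and 8024 in KO, against 6313 and 5884. Library totals changed the share of calls that were higher from 48.6% to 22.1% in WT and from 51.3% to 21.9% in KO. Over all settings, OGD calls ran from 4313 to 8280 in WT and 2341 to 8024 in KO.

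Genes called by genotype in normoxia were 5 in the fit reported, 9 as deposited, 3 with the replicate block, 3 with the filter, 2 with batch 3 cultures only, 11 with batch as a covariate and 3 to 5 leaving out a library. Under OGD they were 4, then 12 as deposited, 2 with the replicate block, 2 with library totals, 1 with a prior count of 0.5, 17 with batch as a covariate and 1 to 7 leaving out a library. The interaction called 13 genes with the replicate block and a batch-by-treatment term, no member among them. The cause of these moves was not tested.

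Under the replicate block (sign flips over 5 pairs) the ratio shifts have the same size by construction (Ldha to Ldhb 1.68 in WT and 1.26 in KO, Eno1 to Eno2 2.76 and 2.49, Aldoa to Aldoc 1.03 and 0.79). The smallest exact p that 5 pairs allow is 0.0625, so these could not pass once adjusted. In batch 3 cultures only the values were 1.64 and 1.19, 2.76 and 2.37, and 0.90 and 0.65, where 4 against 4 allows 0.0286 and 3 against 3 allows 0.1, before adjustment. Aldoa to Aldoc in KO did not reach its limit there (exact permutation p 0.3). Leaving out each replicate gave 1.48 to 2.06 and 1.11 to 1.36 for Ldha to Ldhb, 2.62 to 3.04 and 2.29 to 2.78 for Eno1 to Eno2, and 0.90 to 1.25 and 0.59 to 0.95 for Aldoa to Aldoc, where 4 against 4 cannot pass once adjusted. Aldoa to Aldoc in KO also missed that limit unadjusted, at an exact permutation p of 0.0857 without replicate 1 or 3 and 0.0571 without 2 or 5.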
